A study of Mus musculus with 6 samples.

Results

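Retnlg, Ly6g, Hdc, Cd101, Asprv1, Mcemp1, Chil3 and Hp are genes whose transcripts mark maturing and mature neutrophils of the mouse. They were picked by gene symbol, and all 8 were found among the 47561 gene and transcript features listed for each library. RNA was sequenced from neutrophils that had been isolated from mouse peripheral blood with a flow sorter, in 3 samples labelled negative control and 3 samples from mice under AVP over 30 days. What the letters AVP stand for is not spelled out in the labels, nor are strain, sex, age, dose and route. Whether each sample is a separate animal is not stated, so p-values measure only how these samples spread, and that spread may be technical. Levels are in FPKM, fragments per kilobase of transcript relative to library size, a scale on which genes of different length can be compared.

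Neutrophils are made in the bone marrow, where they pass from granule-forming progenitors to cells with a segmented nucleus that enter the blood. In the mouse the mature cell is recognised by Ly6G, the antigen bound by the antibody 1A8, and CD101 separates mature from immature Ly6G-positive cells in flow cytometry. Retnlg encodes resistin-like gamma, a secreted cysteine-rich protein of the resistin family that is abundant in mouse bone marrow and blood neutrophils.

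The genes fall into 3 groups by product. Retnlg, Chil3 and Hp encode secreted proteins, Ly6g, Cd101 and Mcemp1 encode proteins of the cell surface, and Hdc and Asprv1 encode enzymes. All 8 are protein-coding, with coordinates on GRCm38, the assembly of the mm10 build named in the submitters' processing notes. Exon counts are those of the longest transcript of each gene in GENCODE M21, and other transcripts of a gene can differ in number of exons. Retnlg (gene identifier 245195, 4 exons) lies on chromosome 16 from 48872608 to 48874498. Hdc (15186, 8 exons) lies on chromosome 2 from 126593659 to 126624025. Chil3 (12655, 11 exons) and Cd101 (630146, 9 exons) are both on chromosome 3, from 106147554 to 106167564 and from 100992189 to 101029553. Hp (15439, 5 exons) and Mcemp1 (69189, 7 exons) are both on chromosome 8, from 109575128 to 109579172 and from 3665762 to 3668905. Ly6g (546644, 4 exons) lies on chromosome 15 from 75155261 to 75159128, and Asprv1 (67855), a gene of 1 exon, on chromosome 6 from 86628174 to 86629710.

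Promoter windows of RefSeq (build GRCm38.p6), from 250 bases before to 50 bases after a gene's start, were at hand for 7 of the 8 genes. They are shown for Retnlg and Hdc, the members whose levels followed each other most closely over the 6 libraries, and for Chil3, whose level followed no other member. Capitals mark matches to the motifs searched on both strands. Those were TTGCNNAA for C/EBP factors, GAGGAA for PU.1, TGANTCA for AP-1 and the NF-kB consensus. The windows are chr16:48872358-48872657 (plus strand) for Retnlg, chr2:126618629-126618928 (minus strand) for Hdc and chr3:106167515-106167814 (minus strand) for Chil3. The Hdc window lies inside the annotated span of the gene, which reaches further upstream.
Retnlg: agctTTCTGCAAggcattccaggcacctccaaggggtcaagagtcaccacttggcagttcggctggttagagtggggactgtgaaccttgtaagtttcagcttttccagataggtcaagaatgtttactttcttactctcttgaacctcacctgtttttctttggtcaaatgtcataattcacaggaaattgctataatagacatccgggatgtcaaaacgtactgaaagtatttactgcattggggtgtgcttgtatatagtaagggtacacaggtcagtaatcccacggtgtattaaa
Hdc: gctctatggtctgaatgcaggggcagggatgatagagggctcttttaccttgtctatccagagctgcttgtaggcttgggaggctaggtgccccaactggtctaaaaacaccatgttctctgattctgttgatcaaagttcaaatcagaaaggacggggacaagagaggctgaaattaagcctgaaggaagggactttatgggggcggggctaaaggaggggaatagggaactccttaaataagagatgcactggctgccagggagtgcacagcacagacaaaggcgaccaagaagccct
Chil3: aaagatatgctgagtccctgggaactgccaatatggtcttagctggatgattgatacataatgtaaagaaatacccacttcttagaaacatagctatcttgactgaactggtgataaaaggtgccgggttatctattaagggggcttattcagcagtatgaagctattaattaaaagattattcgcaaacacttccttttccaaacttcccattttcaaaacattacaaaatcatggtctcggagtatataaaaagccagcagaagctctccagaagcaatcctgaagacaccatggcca
The Retnlg window held 1 match, to the C/EBP motif, read on the minus strand and beginning 246 bases before the start. The Hdc and Chil3 windows held none of the 4 motifs in these letters. The C/EBP motif was found in 3 of the 7 windows (Retnlg, Ly6g and Cd101) and in 10.8% of 27025 windows of the same length. The PU.1 motif was found in 3 of the 7 (Ly6g, Cd101 and Asprv1) and in 28.3% of all windows. The AP-1 motif was found in Mcemp1 and in 7.9% of all windows, and the NF-kB motif in Asprv1 and in 8.2%. A match describes letters in a window and does not show that a factor binds there.

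The libraries held about 14200000 to 16850000 fragments, estimated from the FPKM that 1 fragment gives to a short pseudogene. Library totals were 755140 to 829725 FPKM. The cell type on the labels was checked with 6 defining neutrophil genes (S100a8, S100a9, Csf3r, Cxcr2, Mmp8 and Mmp9), all of them tested. They summed to 164222 to 184948 FPKM among controls and 154661 to 184006 FPKM under AVP. Of 11 progenitor genes, 7 were listed at 0 in all 6 libraries, among them Elane, Mpo and Ctsg, which encode proteins of primary granules. Of the rest, Prtn3 was at 7.60 FPKM and Kit at 0.315 FPKM in AVP replicate 2, both at 0 elsewhere. Mki67 was at 0.969 to 2.70 FPKM and Top2a at 0 to 0.338 FPKM over the 6 libraries. Transcripts of other blood cells differed between libraries: 8 basophil genes summed to 338 FPKM in AVP replicate 1, 31.1 FPKM in control replicate 2 and 0 to 0.0466 FPKM elsewhere, and 8 erythroid genes to 242590 FPKM in AVP replicate 1 against 102677 to 154872 FPKM in the others. Such genes are given below beside the members they touch. The sums of 7 B cell genes did not overlap between the groups. They were 4899 to 7749 FPKM among controls and 1259 to 4839 FPKM under AVP. In bulk samples, fewer cells of a type and less RNA per cell cannot be told apart.

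The levels of the 8 genes spanned a wide range. Retnlg took 78.3% to 86.6% of their summed FPKM and was between rank 8 and rank 16 of all features in each library. Hp, Mcemp1 and Hdc followed, with means over the 6 libraries of 669, 471 and 198 FPKM. Ly6g (76.8 FPKM), Chil3 (62.4 FPKM), Asprv1 (53.8 FPKM) and Cd101 (20.4 FPKM) were lower. The ranges of these 4 over the 6 libraries overlapped.

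The design sets AVP against the negative control, and here the question is how the 8 genes differ between them. Of the 8 genes, 6 had a higher and 2 (Cd101 and Chil3) a lower fitted level after AVP, with a median log2 fold change of 0.92. Over all 8523 genes tested the median was -0.04, and 47.7% lay above 0. Levels of 5 genes did not overlap between the groups and were higher after AVP, namely Retnlg, Hdc, Asprv1, Hp and Mcemp1, where 6.39% of all genes tested behaved so, and 0 were lower without overlap, where the background was 7.63%. At an unadjusted p under 0.05 by limma, 5 genes were higher (Retnlg, Hdc, Asprv1, Hp and Ly6g), where the background was 4.69%, and 0 were lower, where it was 3.78%. Those backgrounds are 400 higher and 322 lower genes, and with each library scaled to the same total they were 315 and 390. Adjusted over all genes, 0 of the 8 passed the threshold of 0.05, and the background was 0% in each direction. The genes were chosen as neutrophil markers with earlier results of these data known, so these counts describe them and do not set them apart from other genes.

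**Figure D1:**
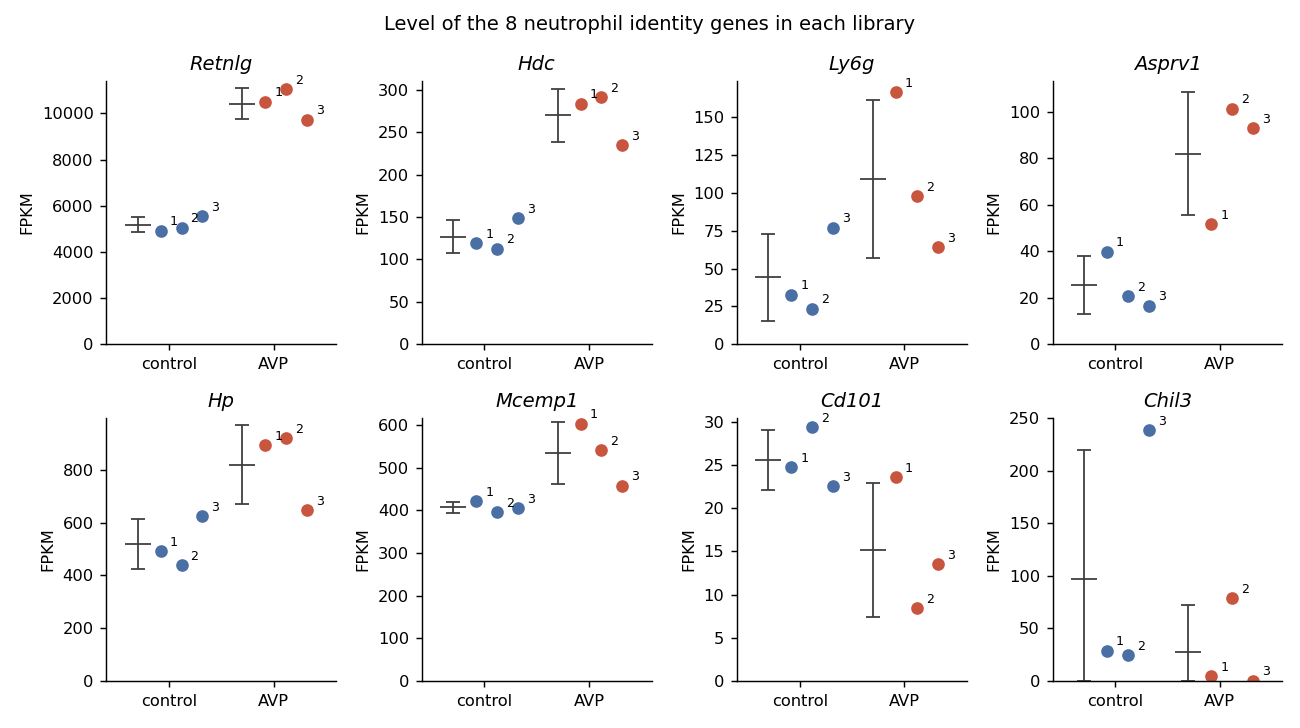
FPKM (vertical axis, from 0) of each gene in the 3 control (blue) and 3 AVP (red) libraries, with the replicate number beside each point and the group mean and SD as a dash and bar to the left of the points, cut off at 0 for Chil3. The 3 AVP libraries lie above the 3 control libraries for Retnlg, Hdc, Asprv1, Hp and Mcemp1, and the groups overlap for Ly6g, Cd101 and Chil3.

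Retnlg was at 4925, 5057 and 5538 FPKM across control replicates 1 to 3, against 10512, 11049.7 and 9729 FPKM across AVP replicates 1 to 3. The groups were far apart relative to their spread, and the coefficient of variation was 6.23% among controls and 6.37% among AVP libraries. The mean after AVP was 2.02 times that of controls (10430.5 ± 664 against 5173 ± 322 FPKM, SD, n = 3). In the fit, the log2 fold change was 1.09 (SE 0.15, 95% interval 0.75 to 1.44), with an adjusted p of 0.0659 by limma over all genes, which placed Retnlg at rank 10 of 8523 by p. The two-sided exact permutation test gave p = 0.1, the smallest value that 3 against 3 samples allow. When only genes reaching 10 FPKM in 3 libraries were tested, the adjusted p of Retnlg was 0.0328. It was 0.733 with no filter and 0.481 with no intensity trend. Omitting 1 library at a time gave adjusted p values of 0.158 to 0.373 and log2 fold changes of 1.03 to 1.156.

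The level of Retnlg was also compared with that of other neutrophil transcripts in the same library. Per unit of Csf3r, the G-CSF receptor gene, Retnlg stood at 5.29 ± 0.762 in controls and at 11.2 ± 3.17 after AVP (SD, n = 3), and the groups did not overlap. Per unit of S100a9, the calprotectin subunit gene, it stood at 0.0874 ± 0.00795 and 0.169 ± 0.0235 (SD, n = 3), again without overlap. Scaled to the 6 defining neutrophil genes, an alternative chosen after seeing the data, the log2 fold change of Retnlg was 1.14 (SE 0.19, adjusted p = 0.127 by limma). No 50-base stretch of the Retnlg transcript occurs in transcripts of another gene in GENCODE M21. Of its 3 relatives, Retn, the resistin gene, was at 69.7, 51.1 and 83.3 FPKM across the controls, against 105, 49.1 and 113 FPKM across the AVP libraries. The groups overlapped for Retn, with a log2 fold change of 0.40 (SE 0.41). Retnlb was at 0 to 10.8 FPKM among controls and 0 to 7.05 FPKM under AVP, and Retnla was listed at 0 in all 6 libraries.

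Chil3 encodes Ym1, a secreted chitinase-like protein without enzyme activity that neutrophils and some monocytes and macrophages make. It was at 28.8, 24.2 and 238 FPKM across control replicates 1 to 3, against 4.72, 78.4 and 0 FPKM across AVP replicates 1 to 3. Control replicate 3 and AVP replicate 2 were high within their groups, AVP replicates 1 and 3 were low, and the groups overlapped. The values correspond to about 5200 fragments in control replicate 3 and about 110 in AVP replicate 1, and 3 fragments in AVP replicate 3 would have given 0.116 FPKM. That limit covers counting error alone, and an exact 0 can be a failed estimate: AVP replicate 3 listed 36 of 2985 genes at 0 that had at least 5 FPKM in each of the other 5 libraries. The log2 fold change was -2.81 (SE 1.51, 95% interval -6.29 to 0.68, adjusted p = 0.699 by limma). It was -1.32 without AVP replicate 3, -1.77 without control replicate 3 and -4.45 without AVP replicate 2.

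Of 9 monocyte markers, some were high and low in the same libraries as Chil3 and some were not. Ccr2, the chemokine receptor of classical monocytes, was at 1.83, 13.5 and 24.2 FPKM across the controls, against 5.70, 47.9 and 0.627 FPKM across the AVP libraries. F13a1, which encodes the A chain of a coagulation factor and is used by monocytes, was at 0, 1.25 and 6.39 FPKM, against 1.57, 17.1 and 0 FPKM. Within their groups both were highest in control replicate 3 and AVP replicate 2, as was Chil3. Ccr2 was lowest in AVP replicate 3, and F13a1 was listed at 0 there and in control replicate 1. Ly6c2, the gene of the monocyte antigen Ly6C, was highest in AVP replicate 1 (398 FPKM), where Chil3 was at 4.72 FPKM. Treml4 was at 16.9, 7.67 and 18.6 FPKM in AVP replicates 1 to 3, and so was highest there in the library that listed Chil3 at 0. Cx3cr1, the fractalkine receptor gene, was highest in control replicate 2 (3.15 FPKM) and AVP replicate 1 (4.37 FPKM). Ms4a4c was at 121, 173 and 174 FPKM across the controls, against 115, 105 and 4.03 FPKM across the AVP libraries. It was the 1 marker of the 9 that was lower without overlap, where the background was 7.63%, and 0 were higher. The 9 monocyte markers, all of them tested, summed to 502 to 1102 FPKM among controls and 209 to 1042 FPKM under AVP, with the lowest sum in AVP replicate 3. None of these 9 was at 0 in every library. Of 7 macrophage markers, Mrc1, Mertk, Marco and C1qa were listed at 0 in all 6, and the 7 summed to 48.7 to 109 FPKM among controls and 28.4 to 113 FPKM under AVP. Cd68, a lysosomal protein of macrophages and monocytes, was at 37.8, 99.97 and 68.8 FPKM across the controls, against 25.8, 89.1 and 15.1 FPKM across the AVP libraries. It was highest in control replicate 2 and lowest in AVP replicate 3. Adgre1, which encodes F4/80, was at 5.97 to 11.6 FPKM among controls and 7.41 to 17.5 FPKM under AVP, and Siglecf at 2.54 to 4.87 and 0.209 to 6.48 FPKM. The part of monocyte or macrophage RNA in the Chil3 values was not tested. Of the 50-base stretches of the Chil3 transcript 29.4% also occur in transcripts of other genes, most often of Chil4, so how fragments were divided among these genes is uncertain. Chil4 was listed at 0 in 5 libraries and at 0.994 FPKM in control replicate 3, where Chil3 was highest. Chil1, which encodes a related chitinase-like protein of specific granules, was at 75.9, 20 and 63.0 FPKM across the controls, against 48.4, 69.2 and 34.7 FPKM across the AVP libraries, and its groups overlapped. Chil5 was at 0 to 1.89 FPKM, Chia1 at 6.7 FPKM in control replicate 2 and at 0 elsewhere, and Chil6 and Chit1 at 0 throughout.

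**Figure D2:**
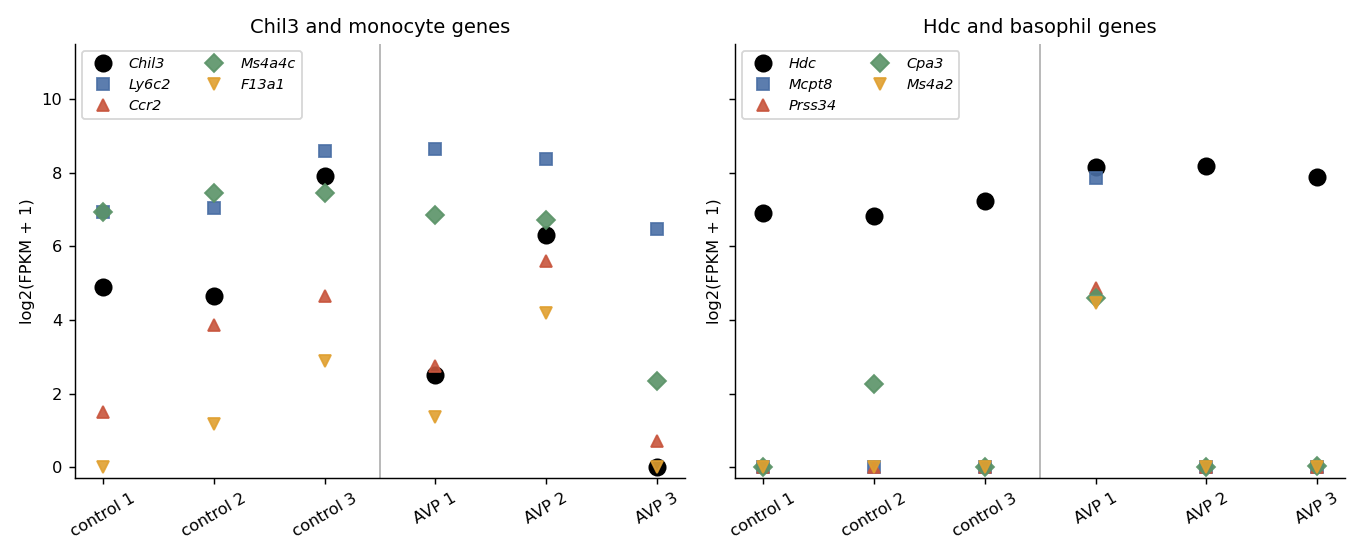
Levels as log2(FPKM + 1) (vertical axis) in the 6 libraries (horizontal axis), with Chil3 (black) beside 4 monocyte genes on the left and Hdc (black) beside 4 basophil genes on the right. Chil3, Ccr2 and F13a1 are all near 0 in AVP replicate 3, where Ms4a4c is at 4.03 FPKM and Ly6c2 at 87.0 FPKM. F13a1 is also at 0 in control replicate 1, where Chil3 is at 28.8 FPKM. The monocyte genes Treml4 and Cx3cr1 are not drawn. The basophil genes Mcpt8, Prss34 and Ms4a2 are above 0 in AVP replicate 1 alone. Hdc lies at 234 to 291 FPKM in the 3 AVP libraries.

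Hp encodes haptoglobin, which binds free haemoglobin and is stored in neutrophil granules as well as made by the liver. It was at 493, 439 and 625 FPKM across the controls, against 894, 919 and 648 FPKM across the AVP libraries. The groups did not overlap, although control replicate 3 and AVP replicate 3 were close. The log2 fold change was 0.74 (SE 0.23, 95% interval 0.20 to 1.28, adjusted p = 0.38 by limma). Per unit of S100a9 or of Csf3r the groups overlapped for Hp. Erythroid transcripts were highest in AVP replicate 1, where Hp was at 894 FPKM. In AVP replicate 2 Hp was at 919 FPKM and the erythroid sum was 119335 FPKM, within the control range. The part of erythroid RNA in the Hp values was not tested.

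Genes of haemoglobin, haem and iron handling were read beside Hp, 10 in number. Of the 7 that were tested, 0 passed by limma and 1 was higher at an unadjusted p under 0.05. Fitted levels were above those of controls for 5 and below for 2, and the median log2 fold change was 0.37. Without overlap, 1 was higher and 1 lower. Over all genes tested, 4.69% were higher and 3.78% lower at that p, and 6.39% were higher and 7.63% lower without overlap. Fth1, the heavy chain of the iron store ferritin, had a mean of 4274 ± 293 FPKM among controls and of 6199.8 ± 310 FPKM under AVP (SD, n = 3), without overlap. Slc40a1, the iron exporter ferroportin, had a mean of 159.6 ± 58.4 FPKM among controls and of 95.9 ± 17.4 FPKM under AVP (SD, n = 3), also without overlap. Their adjusted p values by limma were 0.282 and 0.686. Cd163, the macrophage receptor that takes up haptoglobin bound to haemoglobin, was listed at 0 in all 6 libraries.

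Ly6g encodes the GPI-anchored surface antigen Ly6G. It was at 32.6, 23.4 and 77.0 FPKM across the controls, against 166, 97.7 and 64.0 FPKM across the AVP libraries. Control replicate 3 lay above AVP replicate 3, so the groups overlapped. In the fit, the log2 fold change was 1.44 (SE 0.53, 95% interval 0.21 to 2.66, adjusted p = 0.49 by limma). Without AVP replicate 1 and control replicate 2, the libraries with basophil transcripts, it was 0.68 (SE 0.52), in a fit chosen after seeing the data. The exact permutation test gave p = 0.2, two-sided. Of the Ly6g transcript 0.45% of the 50-base stretches occur in transcripts of other genes.

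Among the other genes of the Ly6 family, 6 of 9 were tested and 0 passed by limma (0 at an unadjusted p under 0.05). All 6 overlapped between groups, with a median log2 fold change of 0.06. The shares of all genes tested were 4.69% higher and 3.78% lower at that p, and 6.39% and 7.63% without overlap. Ly6c2, the monocyte antigen Ly6C, was at 122, 131 and 388 FPKM across the controls, against 398, 333 and 87.0 FPKM across the AVP libraries. Ly6e was at 352 to 467 FPKM among controls and 429 to 655 FPKM under AVP, Ly6d at 263 to 404 and 92.8 to 466 FPKM, and Ly6a at 101 to 245 and 54.5 to 264 FPKM. Ly6c1 was at 4.69 to 6.93 FPKM among controls and 3.56 to 18.2 FPKM under AVP, and Ly6i at 0 to 40.7 and 0 to 23.8 FPKM. Ly6k was at 7.52 FPKM in control replicate 2 and listed at 0 elsewhere.

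Cd101 encodes an immunoglobulin-superfamily receptor of mature neutrophils and some T cells. It was at 24.8, 29.4 and 22.6 FPKM across the controls, against 23.6, 8.39 and 13.5 FPKM across the AVP libraries. AVP replicate 1 lay within the control range and AVP replicates 2 and 3 lay below it. The log2 fold change was -0.74 (SE 0.49, 95% interval -1.88 to 0.39, adjusted p = 0.768 by limma). It was -0.36 without AVP replicate 2 and -1.160 without AVP replicate 1, where the unadjusted p was 0.0441. Per unit of Csf3r the groups did not overlap, at 0.0261 ± 0.00436 in controls and 0.0151 ± 0.0049 after AVP (SD, n = 3), while per unit of S100a9 they overlapped. The 7 T cell markers summed to 112 FPKM in AVP replicate 3, where Cd101 was at 13.5 FPKM, and to 0.424 to 13.7 FPKM in the other libraries. The part of T cell RNA in the Cd101 values was not tested.

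Mcemp1 encodes a single-pass membrane protein first described in mast cells and expressed by neutrophils and monocytes. It was at 422, 397 and 405 FPKM across the controls, against 603, 541 and 458 FPKM across the AVP libraries. The 3 AVP libraries lay above the controls, whose coefficient of variation was 3.12%. The log2 fold change was 0.46 (SE 0.21, 95% interval -0.02 to 0.94, adjusted p = 0.612 by limma). Without AVP replicate 1 and control replicate 2 it was 0.30. Per unit of S100a9 the groups overlapped. Per unit of Csf3r they did not. Of 5 mast cell markers, Cma1, Tpsb2 and Mcpt4 were listed at 0 in all 6 libraries. Cpa3, a carboxypeptidase of mast cells and basophils, was at 23.0 FPKM in AVP replicate 1, where Mcemp1 was highest, at 3.78 FPKM in control replicate 2 and at 0 to 0.0212 FPKM elsewhere. Kit was at 0.315 FPKM in AVP replicate 2 and at 0 elsewhere. The part of mast cell or basophil RNA in the Mcemp1 values was not tested.

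Hdc encodes histidine decarboxylase, the enzyme that makes histamine, and is used by neutrophils as well as by basophils and mast cells. It was at 119, 113 and 148 FPKM across the controls, against 283, 291 and 234 FPKM across the AVP libraries. Every AVP library lay above every control. Means were 127 ± 19.0 FPKM among controls and 269.7 ± 30.8 FPKM under AVP (SD, n = 3), 2.13 times as high, with a log2 fold change of 1.17 (SE 0.24, 95% interval 0.63 to 1.71) and an adjusted p of 0.19 by limma. Basophil transcripts were unevenly spread. Mcpt8, a serine protease of basophil granules, reached 230 FPKM in AVP replicate 1 and stood at 0 in every other library, and none of the 8 basophil genes passed the filter for testing. In AVP replicate 2, where all 8 basophil genes were listed at 0, Hdc was at 291 FPKM. The part of basophil RNA in the Hdc values was not tested. Without AVP replicate 1 and control replicate 2, the fitted log2 fold change of Hdc was 0.999 (SE 0.30, unadjusted p = 0.015 by limma), and its adjusted p was 0.827.

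Most genes that act on histamine after its synthesis did not pass the filter for testing. Of 8 genes for histamine breakdown, transport and reception, 2 were tested and 0 passed by limma. At an unadjusted p under 0.05 by limma, 1 was lower, where the background was 3.78%. Hnmt, the enzyme that methylates histamine, was at 9.42, 7.83 and 30.9 FPKM across the controls, against 58.7, 42.5 and 18.9 FPKM across the AVP libraries. Its groups overlapped, with a log2 fold change of 1.46 (SE 0.64, unadjusted p = 0.0521 by limma). Hrh2, a histamine receptor gene, was at 35.4, 5.76 and 11.8 FPKM across the controls, against 0.180, 7.10 and 2.27 FPKM across the AVP libraries, also with overlap (log2 fold change -2.18, SE 0.90, unadjusted p = 0.0417 by limma). Hrh4 was at 20.9 FPKM in AVP replicate 1, the library with basophil genes, and at 0 to 0.0501 FPKM elsewhere.

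Asprv1 encodes a retroviral-like aspartic protease known from the epidermis and expressed by neutrophils. It was at 39.8, 20.6 and 16.5 FPKM across the controls, against 51.7, 101 and 92.8 FPKM across the AVP libraries. The groups did not overlap, but the highest control, replicate 1, and the lowest AVP library, also replicate 1, were close. In the fit, the log2 fold change of 1.76 (SE 0.42, 95% interval 0.80 to 2.71, adjusted p = 0.282 by limma) was the highest of the 8 genes as an estimate. Its interval overlapped those of the other 5 genes with a higher level after AVP. Omitting 1 library at a time moved it between 1.499 and 2.103.

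**Figure D3:**
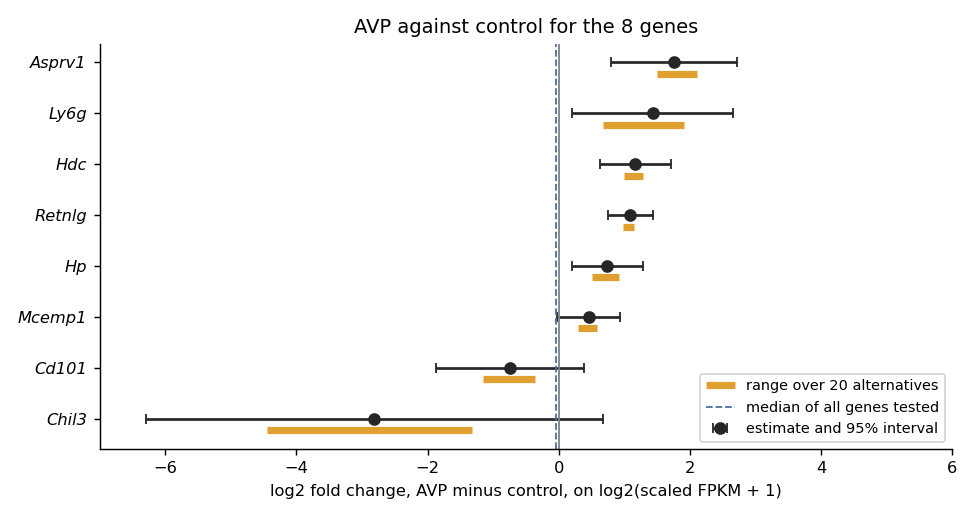
Log2 fold change of each gene, AVP minus control (horizontal axis), with its 95% interval (black) and the range of the estimate over 20 alternative settings (orange), beside the median of all genes tested (dashed line). The intervals of Asprv1, Ly6g, Hdc, Retnlg and Hp lie above 0, those of Mcemp1, Cd101 and Chil3 include 0, and in none of the 8 does the orange range cross 0.

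The 8 genes did not share a single pattern over the libraries. As a measure of likeness, the log2 levels of each gene were centred on their mean, and the root mean square difference between genes was taken over the 6 libraries, so that a low value means a like pattern. Retnlg and Hdc were the closest pair of the 28, at 0.0982, and Mcemp1 and Hp the next, at 0.217. Ly6g was 0.519 from Hdc and 0.61 from Retnlg. Asprv1 was 0.611 from Retnlg and 1.01 from Ly6g. Among the AVP libraries, Ly6g was highest in replicate 1, where Asprv1 was lowest. Cd101 was 0.713 from Mcemp1 and 1.48 from Asprv1. Chil3 was at least 2.59 from every other member. A gene with a large range over libraries is far from all others by this measure, and the libraries share group and depth, so these values are descriptions.

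Among 1925 genes with a mean of at least 20 FPKM, predicted genes and pseudogenes left out, the 5 closest to Retnlg were Hdc (0.0982), Litaf (0.136), Entpd1 (0.151), Tsc22d3 (0.152) and Polr1d (0.162). Litaf, a regulator of endosomal and inflammatory signalling, was at 105, 94.1 and 130 FPKM across the controls, against 216, 277 and 204 FPKM across the AVP libraries. Entpd1 encodes CD39, a surface enzyme that breaks down extracellular ATP, and was at 32.2, 37.0 and 36.0 FPKM across the controls, against 62.3, 63.9 and 52.2 FPKM across the AVP libraries. The controls of Tsc22d3, a gene known to be induced by glucocorticoids, gave 145, 136 and 143 FPKM and its AVP libraries 233, 337 and 248 FPKM. Polr1d, a subunit gene of RNA polymerases I and III, was at 38.2, 47.8 and 47.2 FPKM across the controls, against 78.9, 74.1 and 71.9 FPKM across the AVP libraries. Since these 5 were chosen for their likeness to Retnlg over the same libraries, their order between the groups follows from the choice.

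**Figure D4:**
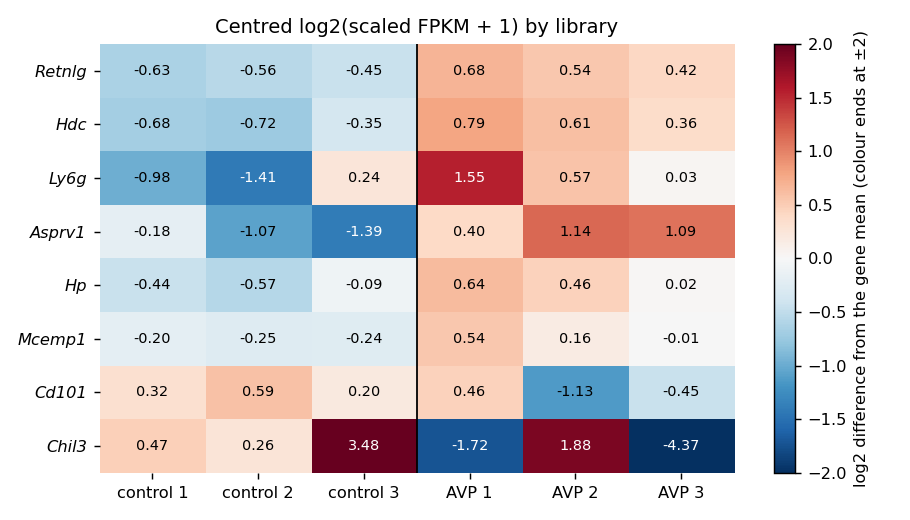
Centred log2(scaled FPKM + 1) of each gene (rows) in the 6 libraries (columns), with the value printed in each cell and the colour scale ending at ±2. Retnlg and Hdc run from -0.72 to -0.35 in the controls and from 0.36 to 0.79 after AVP, while Chil3 swings from 3.48 in control replicate 3 to -4.37 in AVP replicate 3.

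Other genes of neutrophil maturation were read from lists, beside the 8. The lists were chosen with earlier results of these data known, so their counts describe the listed genes and do not set them apart from other genes. Of 31 further genes of mature blood neutrophils, all tested, 0 passed by limma (at an unadjusted p under 0.05, 10 were higher and 2 lower), 25 had a fitted level above and 6 below that of controls, and the median log2 fold change was 0.29. The groups did not overlap for 9 that were higher and 2 that were lower. Over all genes tested, 4.69% were higher and 3.78% lower at that p, and 6.39% were higher and 7.63% lower without overlap. Those with the smallest p were Trem1, an amplifier of inflammatory signalling (log2 fold change 2.58, SE 0.35), Il1r2, the interleukin-1 decoy receptor (1.83, SE 0.35), Mxd1, a repressor of the MYC network (1.37, SE 0.27), and Il1b, the cytokine interleukin-1 beta (0.81, SE 0.17). The lower ones were Fpr2, a formyl peptide receptor (-1.03, SE 0.27), and Mmp9, gelatinase B of the tertiary granules (-0.85, SE 0.35). Mmp9 is 1 of the 6 defining genes of the cell, which are all on this list. For the other 5, S100a8, S100a9, Csf3r, Cxcr2 and Mmp8, the groups overlapped, and the log2 fold changes were -0.06 (SE 0.14), 0.15 (SE 0.14), 0.04 (SE 0.24), -0.03 (SE 0.29) and 0.50 (SE 0.25).

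Of 13 genes of bone marrow neutrophils and secondary granules, 10 were tested, 0 passed by limma (3 higher at an unadjusted p under 0.05), and 3 did not overlap and were higher after AVP, with a median log2 fold change of 0.44. The shares of all genes tested were 4.69% at that p and 6.39% without overlap. Lcn2, the iron-scavenging lipocalin, was at 236, 306 and 475 FPKM across the controls, against 814, 1019 and 812 FPKM across the AVP libraries. Adam8, a metalloprotease of granules and the cell surface, was at 39.0, 42.5 and 23.7 FPKM across the controls, against 90.7, 69.9 and 81.1 FPKM across the AVP libraries. Ngp, neutrophilic granule protein of immature cells, was at 5.41, 0 and 13.6 FPKM across the controls, against 24.1, 39.6 and 13.9 FPKM across the AVP libraries. The lowest AVP value of Ngp and the highest control were close. Camp, the cathelicidin of the same granules, was at 15.2, 0 and 10.3 FPKM across the controls, against 0, 2.43 and 0 FPKM across the AVP libraries, with overlapping groups. Ltf, the lactoferrin gene, was at 0.11 FPKM in control replicate 1 and at 0 elsewhere.

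Of 12 transcription factors of granulocyte development, 11 were tested and 0 passed by limma (1 higher at an unadjusted p under 0.05). Fitted levels were above those of controls for 9 and below for 2, 5 did not overlap and were higher after AVP, and the median log2 fold change was 0.47. Among all genes tested, 6.39% were higher without overlap and 4.69% higher at that p. Cebpa, a factor that sets the granulocyte fate, was at 5.72, 3.22 and 1.03 FPKM across the controls, against 22.2, 13.5 and 8.24 FPKM across the AVP libraries. Cebpb, its relative used in emergency granulopoiesis, was at 40.4, 39.8 and 26.4 FPKM across the controls, against 64.7, 41.2 and 80.5 FPKM across the AVP libraries. By limma, the log2 fold change of Junb, an AP-1 subunit, was 0.55 (SE 0.25), and that of Klf4, a factor of myeloid differentiation, 1.101 (SE 0.64). Irf8, which favours monocytes over granulocytes, was at 3.51, 16.2 and 13.6 FPKM across the controls, against 0.0867, 3.33 and 4.13 FPKM across the AVP libraries, and its groups overlapped. Cebpe, which drives secondary granule genes, was at 0 to 3.16 FPKM, and Gfi1 was listed at 0 in all 6 libraries.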

How the data were processed

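Per the labels' protocols, total RNA of sorted blood neutrophils was extracted with TRIZOL, and TruSeq libraries were read from both ends on an Illumina NovaSeq. The submitters' processing notes name cutadapt 1.16.5, HISAT2 2.1, featureCounts 1.6.4, DESeq2 2.11.40.6 and mm10, with no role. The deposited values are taken as FPKM. The files do not name the unit, which was read from the values: multiplied by transcript length in kilobases they sum to 929016 to 990655 per library, near the scaling constant of FPKM, and low values of pseudogenes fall on steps of 1 and 2 fragments, from which depth was estimated. Because no counts are given, no count model was used.

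The filter asked for 1 FPKM or more in 3 or more libraries and left 8523 genes, all 8 members included. Libraries were scaled by an unweighted trimmed mean of log ratios (30% of ratios, 5% of levels trimmed at each end). Differences on log2(scaled FPKM + 1), which understate changes of low genes, went into limma 3.58.1 (R 4.3.3) with an intensity trend and Benjamini-Hochberg adjustment over all genes at 0.05. Overlap was read from deposited values. Tested on simulated data for this comparison (8523 genes), the procedure found 5 of 67 genes with a simulated log2 change of 1. It found 41 of 67 with 2 and 66 of 66 with 4, beside 12 false calls. Changes were simulated only in genes of higher level, so these counts do not cover low genes.

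The members and gene lists were chosen with earlier results of these data known. All 8 members are named with every value. For lists other than progenitor and cell type markers, up to 4 genes whose groups do not overlap are named, smallest p first. Where no gene qualified, the 2 with the highest mean are named. Every relative reaching 1 FPKM is named. Progenitor and cell type markers were not named by this rule. Other genes named were chosen after their values were seen. Fragments and exons per member were taken with the longest GENCODE M21 transcript. Names and coordinates came from RefSeq on GRCm38.p6. Scaling, filter, pseudocount, moderation, pairing and libraries were varied in 18 settings, and 2 more were chosen after seeing the data.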

Additional observations from a re-analysis of the deposited data

How the results depend on the processing

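In all 20 alternatives the fitted direction of each of the 8 genes was that of the main analysis. Retnlg crossed the threshold with the filter of 10 FPKM in 3 libraries (log2 fold change 1.08, adjusted p = 0.0328 by limma), where 1 of the 8 members and 11 of all genes passed and 380 genes were at an unadjusted p under 0.05, with fewer genes tested (3675). A pseudocount of 5 gave 3 genes in all, the fit with no intensity trend 1, and leaving out a library 0 to 4, the 4 without control replicate 3. Of the 8 members, 5 were at an unadjusted p under 0.05, against 3 with no intensity trend, 3 without AVP replicate 1 and control replicate 2 (417 of all genes, against 722), and 4 to 6 with a library left out. Without AVP replicate 1 the 5 included Cd101 and not Ly6g. Where these counts moved, the cause was not tested beyond the fewer genes or samples. Same-numbered samples did not deviate together (correlations of 0.02, -0.013 and -0.042). The labels state no pairing, and such correlations cannot show whether same-numbered samples were handled together. With a replicate block 5 members stayed at an unadjusted p under 0.05, and the adjusted p of Retnlg was 0.402. The lowest fragment numbers of the 8 genes in any single library were those of Chil3, with about 110 in AVP replicate 1 and a listed 0 in AVP replicate 3. In control replicate 3 Chil3 had about 5200.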

Other observations

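Chil3 was given no likeness measure under the rule fixed for Retnlg, and its neighbours were listed after its values were seen. The 5 of 1925 genes closest to it were Bccip (1.14), Lmo2 (1.19), Ear2 (1.34), S100a4 (1.34) and Snx10 (1.345), all farther from Chil3 than Retnlg was from Hdc. S100a4, a calcium-binding protein abundant in monocytes and other leukocytes, was at 70.4, 295 and 522 FPKM across the controls, against 174, 373 and 3.24 FPKM across AVP replicates 1 to 3. Ear2, an eosinophil-associated ribonuclease also found in monocytes, was at 41.9, 56.4 and 107 FPKM, against 37.0, 75.8 and 3.91 FPKM. Of the other eosinophil markers, Prg2, Epx, Ear1 and Ear6 were listed at 0 in all 6 libraries. Il5ra was at 6.76 FPKM in AVP replicate 3, 1.67 FPKM in AVP replicate 2 and, among controls, 0.575 FPKM in replicate 2, and Ccr3 at 4.19 FPKM in control replicate 3 and 4.27 FPKM in AVP replicate 1, both at 0 elsewhere.

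The 7 B cell markers summed to 4899 to 7749 FPKM among controls and 1259 to 4839 FPKM under AVP, without overlap. All 7 had a fitted level below that of controls. Of these, 3 (Igkc, Cd79b and Pax5) were lower without overlap, where the background was 7.63%. At an unadjusted p under 0.05 by limma, 1 (Igkc) was lower, where the background was 3.78%. Igkc had a mean of 4715 FPKM among controls and of 2221 FPKM under AVP. The 6 NK cell markers summed to 48.2 FPKM in AVP replicate 3 and 3.18 to 4.65 FPKM elsewhere. The 6 platelet markers summed to 107 to 205 FPKM among controls and 80.1 to 212 FPKM under AVP. Of the 5 tested, 1 (Itgb3) was lower without overlap and at an unadjusted p under 0.05 by limma. The backgrounds were 7.63% and 3.78%. Itgb3 was at 2.13 to 3.47 FPKM among controls and 0.0187 to 0.592 FPKM under AVP.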
